A study of Mus musculus with 8 samples.

Results

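The 10 mouse genes of the NF-kB and IkB family, Nfkb1, Nfkb2, Rel, Rela, Relb, Nfkbia, Nfkbib, Nfkbie, Nfkbiz and Bcl3, were followed through H3K27ac HiChIP of HPC-7 cells, among 21738 protein-coding genes in all. A loop was assigned to a gene when either of its 5 kb bins held the start site of the gene's canonical GENCODE transcript. HPC-7 is an immortal line of mouse blood progenitors. In HiChIP, a nuclease cuts crosslinked chromatin, an antibody pulls down fragments, here with acetylated lysine 27 of histone H3, a mark of active promoters and enhancers, and DNA ends held close together are then ligated and sequenced. All groups were HPC-7 cells transduced with a retrovirus for CEBPA, a myeloid transcription factor, as the full-length isoform p42 or as p30, the truncated isoform of leukaemia. In the study's methods the lines of these names carry CEBPA fused to ERT2, a domain that keeps it out of the nucleus until 4-OHT is given, and 4-OHT treatment is stated for experiments on such lines in general; the sample labels name neither. The viral promoter, not the gene's own, sets the level of CEBPA in these cells. Either line was untreated (UT) or was given lipopolysaccharide (LPS), a ligand of the receptor TLR4, at 100 ng/mL for 2 h. Each of the 4 groups (both isoforms, UT or LPS) had 2 libraries, but 1 loop list was deposited for each group. Spread between replicates was therefore not measurable, and each difference given here is between pooled lists, not a tested effect of LPS or of the isoform.

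NF-kB is a family of dimeric transcription factors. Rela, Rel and Relb encode subunits with an activation domain, and Nfkb1 and Nfkb2 encode precursors that are processed to the DNA-binding subunits p50 and p52. In resting cells the IkB proteins, such as those of Nfkbia, Nfkbib and Nfkbie, hold the dimers in the cytoplasm; after TLR4 is engaged, IkB kinase marks them for degradation and the dimers enter the nucleus. Nfkbiz and Bcl3 encode nuclear IkB proteins that bind p50 or p52 on DNA. Many family genes are themselves NF-kB targets, so the response carries its own feedback.

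Values of all 4 lists are given in the order p30 UT, p30 LPS, p42 UT, p42 LPS throughout. List length was 80489, 94609, 158233 and 78591 loops, from 14503330 to 18999991 modelled contacts. Peak bins had on average 3.95, 5.70, 6.38 and 4.12 times the coverage of other bins, so the lists differed in enrichment as well as in length. Of 10 progenitor markers, 10 had a loop in each list. Of 8 markers of other cell types, 5 (Cd3e, Ms4a1, Epcam, Alb and Col1a1) had none in any list, and the others had loops in some or all lists. The transgene is viral and its locus was not measured, so the CEBPA labels could not be checked from these lists.

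Promoter sequence is shown for the 4 members whose start-site coverage moved most between lists, as a window of 250 bases before to 30 bases after the start site, read from GRCm39. Capitals mark matches to the NF-kB binding consensus, searched on both strands.
Bcl3, chr7:19556833-19557112, minus strand: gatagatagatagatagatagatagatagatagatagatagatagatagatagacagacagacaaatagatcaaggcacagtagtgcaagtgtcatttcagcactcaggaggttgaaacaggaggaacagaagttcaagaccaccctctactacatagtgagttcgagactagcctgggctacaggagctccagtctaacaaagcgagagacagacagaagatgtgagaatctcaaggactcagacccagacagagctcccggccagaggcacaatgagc
Relb, chr7:19363394-19363673, minus strand: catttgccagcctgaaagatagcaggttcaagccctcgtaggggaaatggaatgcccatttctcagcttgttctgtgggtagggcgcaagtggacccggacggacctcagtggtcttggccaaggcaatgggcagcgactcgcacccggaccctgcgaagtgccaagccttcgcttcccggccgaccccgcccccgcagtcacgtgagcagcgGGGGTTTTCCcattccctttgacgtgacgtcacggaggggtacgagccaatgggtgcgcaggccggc
Nfkb2, chr19:46292509-46292788, plus strand: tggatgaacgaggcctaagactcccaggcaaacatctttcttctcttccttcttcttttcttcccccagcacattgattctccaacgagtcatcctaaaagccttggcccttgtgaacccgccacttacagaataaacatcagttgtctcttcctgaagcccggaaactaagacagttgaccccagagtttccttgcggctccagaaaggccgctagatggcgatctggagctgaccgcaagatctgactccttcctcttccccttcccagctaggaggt
Nfkbia, chr12:55539403-55539682, minus strand: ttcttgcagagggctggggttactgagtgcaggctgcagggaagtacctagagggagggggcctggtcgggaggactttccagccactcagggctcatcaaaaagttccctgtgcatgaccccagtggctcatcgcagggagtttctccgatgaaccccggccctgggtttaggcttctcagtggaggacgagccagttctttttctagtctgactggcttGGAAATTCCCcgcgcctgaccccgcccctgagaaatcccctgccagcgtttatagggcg
The window of Relb held a match that began 37 bases before the start site, and that of Nfkbia held one on the opposite strand, 29 bases before it. Nfkbie had a match as well, 86 bases before its start, and the other 7 members had none, which says only that these letters are absent from 280 bases. The windows of Bcl3, Nfkbib and Nfkbiz lie wholly inside the annotated gene, that of Bcl3 reaching to chr7:19557570. Sequence before the first annotated base of these genes was therefore not searched. Among the same windows of all 21738 genes, 8.46% held a match. The letters TTGCNNAA, a core of C/EBP sites, occurred in the window of Nfkb1 alone among the members and in 10.2% of all windows. TGANTCA, the AP-1 core, occurred in the window of Nfkbie alone and in 6.84% of all windows. No match of one motif overlapped a match of another in the members' windows.

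Most members had loops at the start site in every list. Loops were listed for 8 of 10 members in p30 UT, for 10 in p30 LPS, for 10 in p42 UT and for 9 in p42 LPS. Over all protein-coding genes, 37.2%, 38.7%, 44.8% and 35.1% had a loop. Nfkb1 and Nfkbib had none in p30 UT, and Relb had none in p42 LPS. The members had 49, 89, 91 and 63 loops in the 4 lists, and 1200, 2386, 2468 and 1599 contacts in these loops. When every list was cut to the same 78591 loops with the lowest q-values, 47, 76, 51 and 63 remained. The numbers of the 2 untreated lists were then near each other, and both LPS lists were higher than the untreated list of their isoform. This cut fell at unlike q-values, from 6.98e-05 in p42 UT to 0.01 in p42 LPS. At a common q under 0.001, 31, 65, 73 and 48 loops remained, and p42 LPS was then below p42 UT. The order of both p42 lists therefore depends on the cut.

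**Figure D1:**
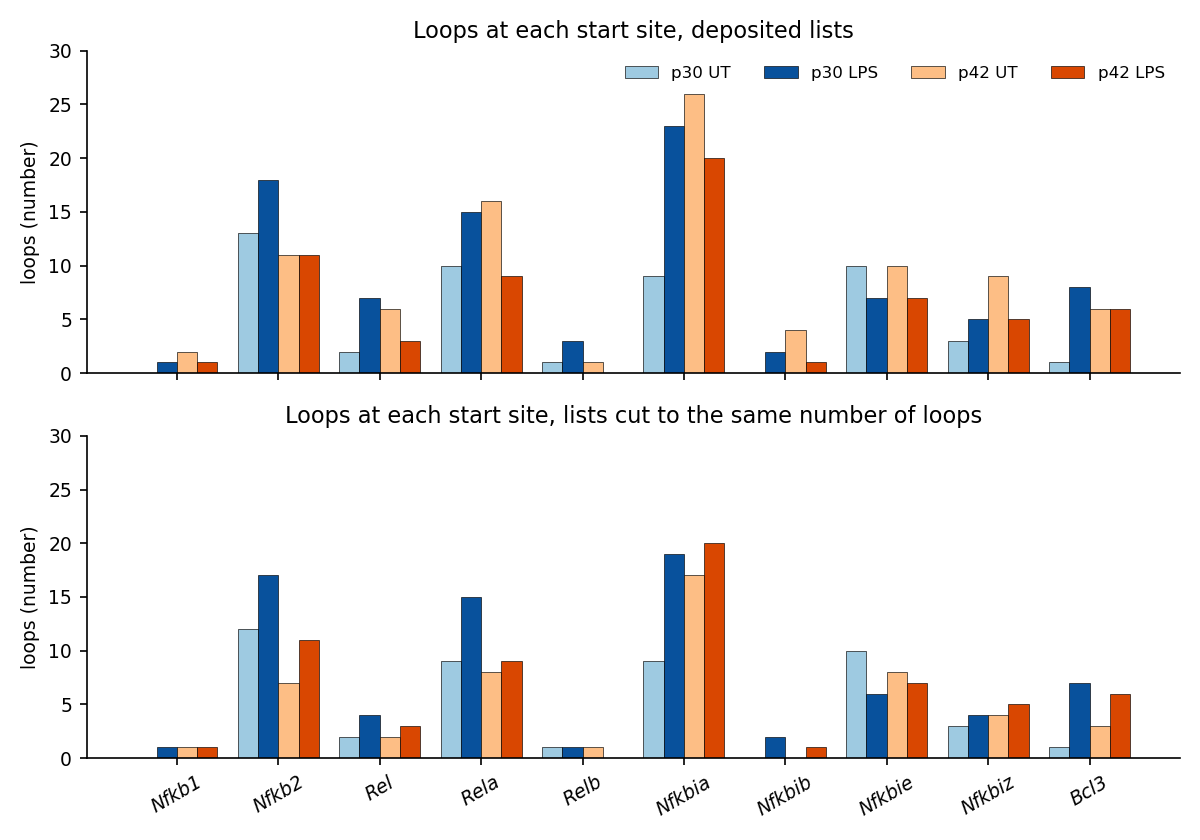
Number of loops at each member's start site (bars), in the deposited lists (upper panel) and in lists cut to 78591 loops each (lower panel), with 1 bar per group. Nfkbia has from 9 to 26 loops in the deposited lists, and the p42 UT bars of Rela and Nfkbiz fall from 16 to 8 and from 9 to 4 in the lists of equal size.

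Over the 4 lists, the members had 136 different loops. Of these, 24 were in 4 lists, 26 in 3, 32 in 2 and 54 in 1. The partner bin held the start site of a protein-coding gene in 23 loops, another exon in 78, an intron in 19 and no annotated gene in 16. Partners lay upstream of the start in 55 loops and downstream in 81. Median distance was 55 kb, 50 kb, 50 kb and 45 kb in the 4 lists, and the median loop had 4.63, 4.99, 4.75 and 4.70 times the contacts expected from distance and coverage, against 4.34, 4.31, 4.24 and 4.33 for the whole lists. Both bins had a peak in 45 of 49, 81 of 89, 86 of 91 and 60 of 63 loops.

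The activating subunits differed in how they were connected. Rela, the most common partner in NF-kB dimers, starts in chr19:5685001-5690000 and had 10, 15, 16 and 9 loops. Its partners lay within 110 kb, and 5 of its 21 different loops were in all 4 lists. They included the bin with the start of Kat5, an acetyltransferase gene 25 kb upstream, with 52, 64, 75 and 45 contacts, and the bin with the start of Sipa1, a GTPase activator gene 25 kb downstream, with 44, 40, 53 and 28 contacts. Rel, which encodes the c-Rel subunit, starts in chr11:23720001-23725000 and had 2, 7, 6 and 3 loops. It had 11 different loops, 1 of which was in all 4 lists, to an intron of Gm39612 50 kb upstream, with 13, 18, 21 and 14 contacts. Relb, the partner of p52, starts in chr7:19360001-19365000 and had 1, 3, 1 and 0 loops. All 4 different Relb loops reached into or near Clptm1, from 20 to 40 kb upstream, and none was in more than 2 lists.

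Of the precursor genes, Nfkb2 was among the most connected members and Nfkb1 among the least. Nfkb2 starts in chr19:46290001-46295000 and had 13, 18, 11 and 11 loops, 23 different ones in all. Its 6 loops in all 4 lists ran downstream over a row of genes. They reached the start-site bins of Fbxl15 and Psd at 25 kb, Cuedc2 at 35 kb, Mfsd13a at 55 kb and Actr1a at 90 kb. The bin with the start of Cuedc2 had 38, 71, 43 and 36 contacts with Nfkb2, which was 5.22, 9.74, 5.88 and 5.76 times the number expected. Nfkb1 starts in chr3:135395001-135400000 and had 0, 1, 2 and 1 loops, each in a single list. The 85 kb loop of p42 UT joined it to a bin inside the gene that holds another annotated start of Nfkb1, with 18 contacts or 6.83 times the number expected.

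Of the cytoplasmic inhibitors, Nfkbia, which encodes IkBa, had the most different loops of any member. It starts in chr12:55535001-55540000 and had 32 different loops, all of them downstream, from 10 to 190 kb. Several of these loops reached Psma6, a proteasome subunit gene. The bin that holds the start of Psma6, 90 kb away, had 21, 29, 41 and 22 contacts, or 9.55, 13.1, 14.7 and 9.19 times the number expected. A bin 100 kb away, in an intron of Psma6 with an exon of Gm56554, had 22, 38, 36 and 36 contacts, or 11.5, 19.6, 15.5 and 17.7 times the number expected. In p30 UT, p30 LPS and p42 LPS, no other member loop had a higher ratio than the loop of 100 kb. Nfkbie, the gene of IkBe, starts in chr17:45865001-45870000 and had 10, 7, 10 and 7 loops, of which 5 were in all 4 lists. They reached the start-site bin of Hsp90ab1, a chaperone gene 15 kb downstream, with 55, 62, 56 and 39 contacts, and that of Spats1, 80 kb upstream, with 23, 16, 19 and 13 contacts. Nfkbib, the gene of IkBb, had 0, 2, 4 and 1 loops, all upstream, and its bin chr7:28465001-28470000 also holds the start of Sirt2, so these loops cannot be assigned to either gene. The bins of Nfkb2, Rel, Rela, Nfkbia and Bcl3 each hold the start of 1 further annotated gene as well, none of them protein-coding.

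Of the nuclear IkB genes, Nfkbiz starts in chr16:55640001-55645000 and had 3, 5, 9 and 5 loops, from 10 to 300 kb long. In all 4 lists it was joined to the bin 15 kb upstream, chr16:55655001-55660000, which holds another annotated start of Nfkbiz itself, with 36, 79, 50 and 55 contacts. Bcl3 starts in chr7:19555001-19560000 and had 1, 8, 6 and 6 loops, none longer than 50 kb. In each list it was joined to an exon of the non-coding gene Gm16175 20 kb upstream, with 38, 72, 31 and 54 contacts. Relb starts 193 kb from Bcl3 on the same chromosome, but no loop between the 2 start sites was listed.

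H3K27ac coverage, the number of reads in the start-site bin, was higher with LPS at all 8 listed members in p30. In p42 it was lower with LPS at all 9 listed members, but 8 of them lost less than the median gene. A list gives coverage only for bins in a loop, so 8 of 10 members could be compared between p30 LPS and p30 UT, and 9 of 10 between p42 LPS and p42 UT. All listed start-site bins of the members carried a peak. Since the lists differed in depth and in enrichment, changes are given as the log2 ratio of coverage minus the median ratio of all protein-coding start-site bins in both lists. That median was -0.06 for LPS against UT in p30 and -0.72 in p42, and a change of at least 1.5-fold was called.

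**Figure D2:**
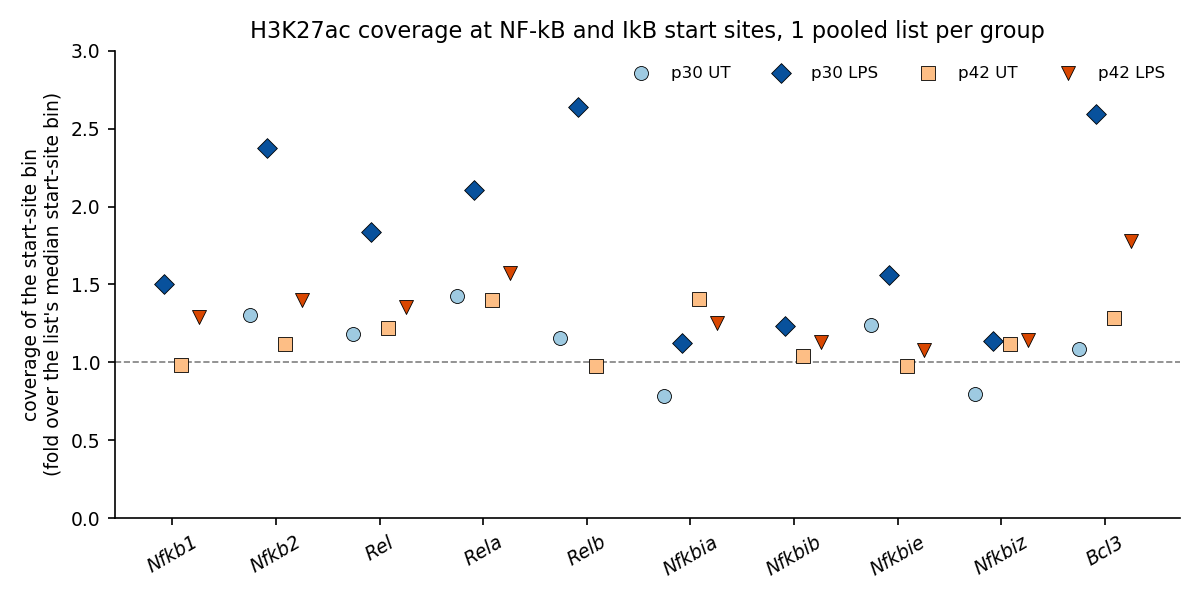
Coverage of each member's start-site bin, as fold over the median start-site bin of the same list (vertical axis, dashed line at 1); each point is 1 pooled list, and missing points are bins that the list does not hold. Relb, Bcl3, Nfkb2 and Rela in p30 LPS lie above 2, and every other point lies below that.

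In p30, Bcl3 had 3748 reads in UT and 8675 in LPS. This was a log2 change of 1.27 (95% counting interval 1.22 to 1.33), rank 1 among 7202 start-site bins. Relb had 3981 and 8834 reads, a log2 change of 1.21 (1.16 to 1.26) and rank 3. Nfkb2, with 4486 and 7950 reads, changed by 0.89 (0.83 to 0.94), rank 10, and Rel, with 4071 and 6137 reads, by 0.65 (0.60 to 0.71), rank 57. These 4 of 8 members were called higher, against 1.31% of all start-site bins. The other 4 were below the call: Rela had 4919 and 7040 reads, and a log2 change of 0.58. Nfkbia (2707 and 3757 reads) and Nfkbiz (2743 and 3806) both had a log2 change of 0.53, and Nfkbie (4276 and 5222) had one of 0.35. Each of these 8 values was above 0 beyond its counting interval. Their median was 0.61, against 0 for all bins, whose values between the 5th and 95th percentile ran from -0.36 to 0.40.

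In p42, Bcl3 was again the member with the largest change. Its reads went from 5360 in UT to 4993 in LPS while the median bin lost more, a centred log2 change of 0.62 (0.57 to 0.68) and rank 89 of 7419. It was the 1 member of 9 called higher, against 1.44% of all start-site bins. Nfkb1 had 4111 and 3630 reads (log2 change 0.54), and Nfkb2 had 4661 and 3932 (0.48). Rela (5840 and 4424 reads) and Rel (5092 and 3811) had log2 changes of 0.32 and 0.31. Nfkbie, Nfkbib and Nfkbiz had changes of 0.30, 0.27 and 0.18. Nfkbia stood apart from the other 8: its start-site bin had 5859 reads in UT and 3521 in LPS, a change of -0.01 (-0.07 to 0.05), within counting error of the median gene. The members' median was 0.31. The positive sign rests on the centring: relative to the modelled contacts of each list the members' median in p42 was -0.15, and the change of Bcl3 was 0.16.

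**Figure D3:**
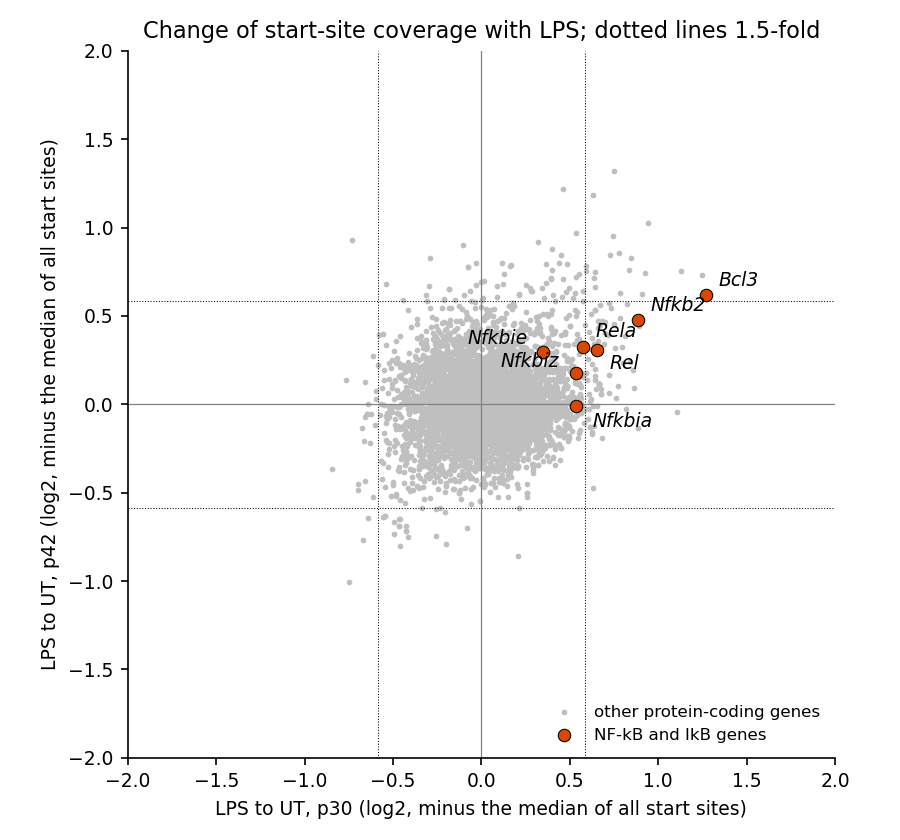
Centred log2 change of start-site coverage with LPS in p30 (horizontal axis) and p42 (vertical axis) for 6331 protein-coding genes with the start-site bin in all 4 lists (grey) and for 7 members (orange); dotted lines mark 1.5-fold. Bcl3 and Nfkb2 lie to the upper right, and Nfkbia, at 0.53 and -0.01, lies on the horizontal zero line.

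The difference of both LPS changes, p42 minus p30, could be taken for 7 members and was below 0 for each. It was -0.62 for Bcl3, the 55th lowest of 6331 genes, and -0.51 for Nfkbia. The values were -0.38 for Nfkb2, -0.33 for Nfkbiz, -0.32 for Rel, -0.23 for Rela and -0.02 for Nfkbie. Bcl3 alone passed 1.5-fold, against 1.22% of all genes. The ratio of peak to other coverage moved with this difference, rising with LPS from 3.95 to 5.70 in p30 and falling from 6.38 to 4.12 in p42, and its part in the result was not tested. When the LPS changes were centred within deciles of mean coverage, an alternative chosen after seeing the data, Bcl3 in p30 had a log2 change of 1.12 and rank 2, Relb had 1.06 and rank 4, and Nfkb2 had 0.74 and rank 38; Rel, at 0.58, fell below the call. The difference between the LPS changes of Bcl3 was then -0.49, no longer past 1.5-fold.

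The extent of the change along the chromosome differed among these genes. Around Bcl3 it was broad. In p30, bins from 25 kb upstream to 20 kb downstream of the start all had log2 changes over 0.6, from 0.64 to 1.27, and 7 of 10 listed partner bins of its loops were higher by 1.5-fold. In p42 the same stretch was flat, with values from 0.61 to 0.74, and 8 of 10 partner bins were higher by 1.5-fold. Partner bins were taken from the loops of any of the 4 lists, and Bcl3 had 1 loop in p30 UT but 8 in p30 LPS. The share of all partner bins past 1.5-fold was not computed, so these counts stand without a background. At Relb in p30 the change was in the start-site bin (1.21) and the bin upstream of it (1.04). The bins 10 kb upstream and 5 kb downstream were not in both lists. The value was 0.35 at 15 kb upstream, and from 20 to 40 kb upstream the values were 0.17 or less. The start-site bin of Nfkb2 had 0.89 in p30, and the bin next to it downstream had 0.11; the bins from 5 to 15 kb upstream were not in both lists. In p42 it had 0.48, the next bin had 0.13, and a partner bin of its loops reached 0.48 as well. In p30 and p42, 0 of its 20 and 19 listed partner bins were higher by 1.5-fold. At Nfkbia the bin 5 kb upstream had 1.01 in p30, and the bins from 5 to 30 kb downstream had values from 0.44 to 0.61 in p30 and from 0.48 to 0.56 in p42. In p42 the start-site bin of Nfkbia had a lower value than the bins on either side of it, 0.56 downstream and 0.52 upstream. Partner bins did not follow the start sites throughout. Their median centred change was higher in p42 than in p30 for all members but Bcl3 (0.64 against 0.76) and Relb (-0.04 against 0.11). At Nfkbiz it was 0.70 in p42 and 0.52 in p30, with single bins up to 1.27 and 0.72. The 1 listed partner bin of Nfkb1 in p42 was at 1.49. The bins listed differ between both lines.

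**Figure D4:**
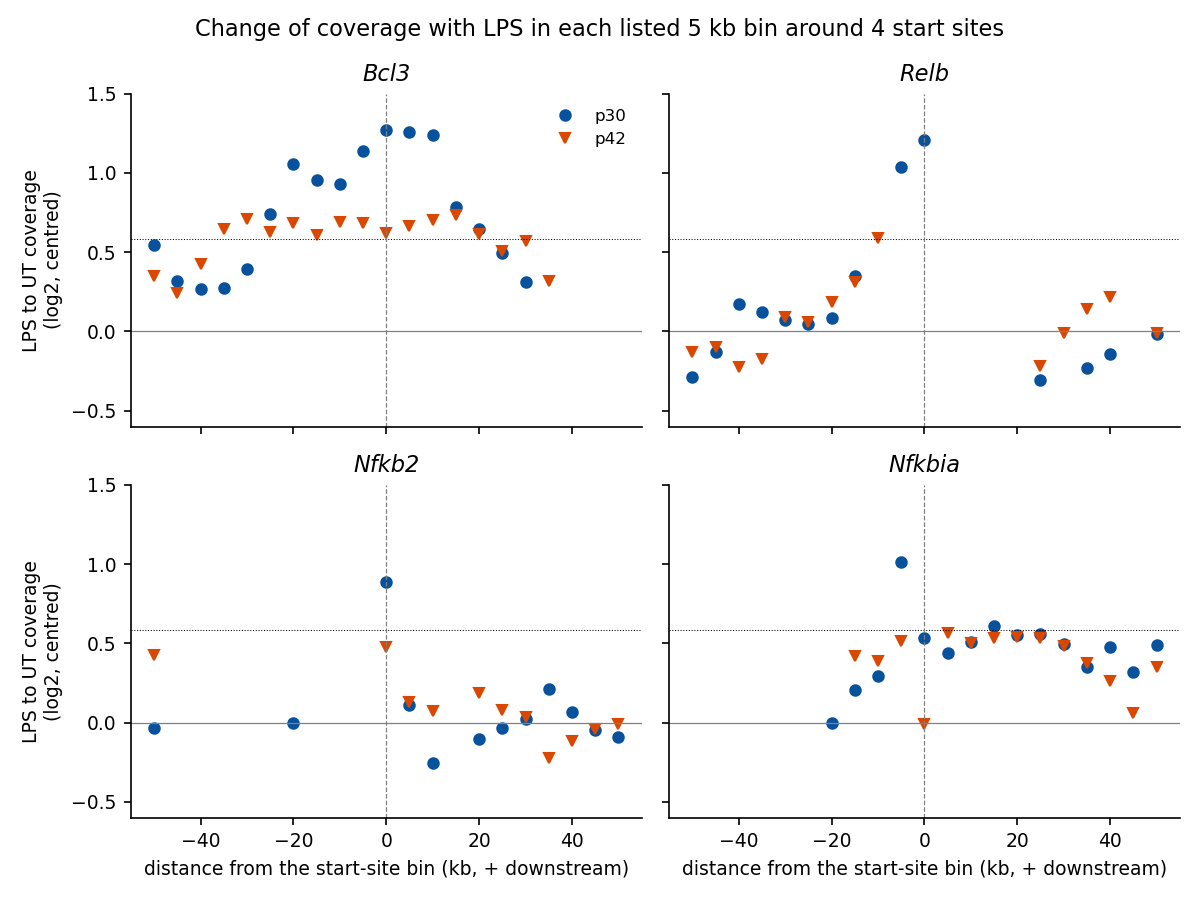
Centred log2 change of coverage with LPS in each 5 kb bin held by both lists (points; p30 in blue, p42 in orange) against distance from the start-site bin in kb, for Bcl3, Relb, Nfkb2 and Nfkbia; the dotted line marks 1.5-fold. The change is broad at Bcl3 and Nfkbia; at Relb and Nfkb2 in p30 the start-site bins reach 1.21 and 0.89, and some bins beside them have no point.

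Most neighbouring genes had smaller changes with LPS. Among listed start sites within 200 kb, 1 of 20 around Rela and 1 of 17 around Relb exceeded the member in p30. In p42, 4 of 12 around Nfkbie, 1 of 4 around Nfkbiz and 1 of 12 around Bcl3 did. Within 200 kb of Bcl3, 13 other protein-coding start sites were in both p30 lists, with a median log2 change of -0.09. Relb, at 1.21, was the highest of them. In p42 the median of 12 was -0.05, and Gm19345, 29.1 kb from Bcl3, was above it with 0.71; this gene was named after its value was seen. Around Nfkb2 the 10 other start sites had a median of -0.03 in p30 and none exceeded 0.21. The other annotated start of Nfkbiz, 15 kb upstream, had 3891, 6132, 5456 and 4086 reads in the 4 lists. Its log2 change with LPS was 0.72 in p30 and 0.31 in p42, above that of the canonical start in both lines.

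In untreated cells, the start-site bin of Nfkbia carried more H3K27ac in p42 than in p30. With 5859 reads against 2707 it had a centred log2 difference of 0.78 (0.71 to 0.84), rank 73 of 7705, and it was the 1 of 8 members called higher, against 2.62% of all start-site bins. Nfkbiz was next, with 4674 against 2743 reads and a difference of 0.43. Nfkbie (-0.41), Relb (-0.30) and Nfkb2 (-0.28) had lower centred values in p42 without passing the call, and Rel (-0.02) was within counting error of the median gene. Before centring, reads were slightly higher in p42 at Relb (4074 against 3981) and Nfkb2 (4661 against 4486). Their negative values follow from subtracting the median ratio of all start-site bins, 0.34. With LPS, Nfkb2 was the 1 of 9 members called lower in p42, against 1.17% of all bins. It had 3932 reads in p42 and 7950 in p30, a difference of -0.69 (-0.75 to -0.64). Bcl3 (-0.47), Nfkbie (-0.47), Rel (-0.36) and Rela (-0.35) were lower without passing the call, while Nfkbia was at 0.23, a value that turned to -0.22 relative to modelled contacts. When centred within deciles of coverage, Nfkb2 was at -0.55 and no longer called. Relative to modelled contacts, by contrast, most of the 9 members were called lower, as were 29.4% of all bins.

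In lists of equal size, 3 of 10 members had more loops in p30 LPS than in p30 UT, by at least 1.5-fold and 3 loops, against 7.87% of all genes with a loop in either list. These were Nfkbia with 19 against 9, Rela with 15 against 9 and Bcl3 with 7 against 1. Nfkbie had fewer, 6 against 10, the 1 of 10 members so called against 6% of all genes. In p42, 2 of 10 members had more loops with LPS, against 3.75%, namely Nfkb2 with 11 against 7 and Bcl3 with 6 against 3, and 0 had fewer, against 8.67%. Between untreated lists, Nfkbia had more loops in p42, 17 against 9, and Nfkb2 had fewer, 7 against 12. These were 1 of 9 members in either direction, against 9.73% and 5.74% of all genes, so the members' shares were near the background. Between LPS lists, 0 of 10 members had more loops in p42, against 5.88%, and 2 had fewer, against 10.4%: Rela with 9 against 15 and Nfkb2 with 11 against 17. In the deposited lists, whose lengths differ, 4 members had fewer loops in p42 LPS than in p42 UT, against 45.9% of all genes, and 6 had more in p42 UT than in p30 UT, against 41.5%.

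Identity of the loops was compared as well. Of the members' loops, p30 LPS and p30 UT shared 35, which was 39.3% of the LPS loops and 71.4% of the UT loops. Over the loops of all protein-coding start-site bins these shares were 53.9% and 65.3%. In p42 the number was 50, or 79.4% of the LPS loops and 54.9% of the UT loops, against 82.1% and 40.5% over all start-site bins. Both untreated lists shared 35 loops, 38.5% of those in p42 and 71.4% of those in p30, against 41.6% and 79.1% over all start-site bins. Both LPS lists shared 48, 76.2% of those in p42 and 53.9% of those in p30, against 66.1% and 51.3%.

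Contacts could be compared for the 24 member loops found in all 4 lists, by a two-sided exact binomial test against the share of modelled contacts, with Benjamini-Hochberg adjustment over 31032 loops. In p30, 5 of 24 were higher with LPS and 0 were lower, against 3.93% of all loops called in either direction, 3.89% higher and 0.039% lower. The loop between both starts of Nfkbiz had 79 contacts in LPS and 36 in UT (exact binomial test, adjusted p = 7.37e-05). The loop of Nfkb2 to Fbxl15 and Psd had 59 and 25 (exact test, adjusted p = 0.000454), and the loop of Nfkb2 to Cuedc2 had 71 and 38 (exact test, adjusted p = 0.00206). The loop of Bcl3 to Gm16175 had 72 and 38 (exact test, adjusted p = 0.00155), and that of Rela to a bin 10 kb upstream had 80 and 55 (exact test, adjusted p = 0.0255). In p42 the Bcl3 loop was the 1 of 24 called, with 54 contacts in LPS and 31 in UT (exact test, adjusted p = 0.0338). Of all loops 3.67% were called, 0.087% higher and 3.58% lower. With the caller's expected contacts as the reference, which follow the coverage of the bins, none of these loops was called in either line, and the share of all loops called higher was 0.135% in p30 and 0% in p42.

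Between untreated lists, 2 of 24 loops had more contacts in p42, against 10.8% of all loops called in either direction, 10.7% higher and 0.13% lower. The members' share of higher calls was therefore not above that of all loops. These were an Nfkbia loop to the Psma6 region 95 kb away, with 45 against 18 contacts (exact test, adjusted p = 0.020), and a Rela loop to its own exon 10 kb downstream, with 108 against 61 (exact test, adjusted p = 0.017). Between LPS lists, 2 of 24 had fewer contacts in p42, against 2.62% of all loops called in either direction, 2.35% lower and 0.27% higher. Both were Nfkb2 loops, that to Fbxl15 and Psd with 31 against 59 (exact test, adjusted p = 0.0411) and that to Cuedc2 with 36 against 71 (exact test, adjusted p = 0.0115). Against expected contacts none of these 4 loops was called. By that reference 1.40% of all loops were called higher in p42 in UT and 0.068% lower with LPS, so the lack of calls among 24 loops is near the background. For LPS against UT in p30, at the depth of these lists, the test found 0.5% of simulated loops changed by 1.5-fold. It found 20% of those changed by 2-fold and 61% of those changed by 3-fold, so loops that were not called cannot be taken as unchanged.

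Other genes of the pathway were taken from 3 lists. Of 7 genes of the LPS receptor and its adaptors, 5 were in both p30 lists. Ly96, which encodes the TLR4 partner MD-2, had 6454 reads in UT and 11094 in LPS (log2 change 0.84), and Cd14, the LPS co-receptor, had 2982 and 4463 (0.64); both passed 1.5-fold, 2 of 5 against 1.31% of all start-site bins. In p42, 0 of 5 passed it, against 1.44%. In that line Cd14 had 10900 reads without LPS and 7271 with it, a centred log2 change of 0.14. It was higher in p42 than in p30 by a centred log2 difference of 1.53 in UT and 1.03 in LPS. Cd14 was the 1 of 5 genes of its list so called in UT and the 1 of 4 in LPS, against 2.62% and 2.76% of all start-site bins. Of 13 kinase and ubiquitin ligase genes, 8 were in both p30 lists and 9 in both p42 lists, and 0 passed 1.5-fold with LPS in either direction; at the shares of all start-site bins called higher, 1.31% in p30 and 1.44% in p42, lists of this length would be near 0 calls. Traf6 and Ikbkb had no loop in any list. Of 9 negative regulators and other IkB genes, 8 and 7 were listed. With LPS, 2 of 8 were called higher in p30, against 1.31% of all start-site bins, and 2 of 7 in p42, against 1.44%. Tnfaip3, which encodes the ubiquitin-editing inhibitor A20, had a log2 change of 0.93 with LPS in p30, rank 7, and of 0.74 in p42, rank 47. Otulin, a deubiquitinase, passed in p30 (0.59), and Irak3, a kinase-like inhibitor of TLR signalling, passed in p42 (0.76). Irak3 was also higher in p42 than in p30, by 0.77 in UT and 1.12 in LPS. In each of these comparisons it was the 1 of 7 genes of its list called higher, against 2.62% and 2.76% of all start-site bins. The medians of the receptor, kinase and regulator lists were 0.57, 0.16 and 0.12 in p30, and 0.24, -0.07 and 0.0022 in p42.

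Among members in all 4 lists, Bcl3 had the widest range of centred log2 coverage over the lists, 1.26, followed by Nfkb2 with 1.09 and Nfkbia with 0.84. The genes whose pattern over the 4 lists was nearest to that of Bcl3, among 95 genes with at least 0.8 of its range and outside 1 Mb of it, were Mllt6, Pim2 and Cpd, at Euclidean distances, after subtraction of each gene's mean, of 0.39, 0.39 and 0.44 in log2 units. With 4 points a gene, this is a description of the lists.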

How the data were processed

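H3K27ac HiChIP of 8 libraries in 4 groups, made with an MNase-based kit, was deposited as 1 loop list per group. Per the study's methods the authors mapped reads to mm39 with BWA-MEM 0.7.17, removed PCR duplicates with pairtools and called loops with FitHiChIP. The bin size of 5 kb is that of the deposited lists. The step that pooled replicates was not given in the sources used here. The deposited contact and coverage values are whole-number counts without normalization. The expected contacts and the coverage bias, a ratio to the mean coverage of bins of the same kind, are the authors' model values, and the contact probability is deposited as a fraction. The deposited q-value, under 0.01 in each list, is FitHiChIP's. Because the caller lists only significant pairs, the contacts of an unlisted pair and the coverage of a bin without a loop are unknown.

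From these files, modelled contacts were computed by dividing the caller's expectation by its probability. Start sites were those of canonical transcripts of protein-coding genes in GENCODE M39 on GRCm39, the assembly of mm39; all 21 chromosome names matched and 0 loops ran past a chromosome end. Coverage ratios were centred on the median over all start-site bins in both lists, and 1.5-fold was called. Loop numbers were compared in lists of 78591 loops, with a call at 1.5-fold after adding 1 and at least 3 loops. For contacts of loops in all 4 lists, an exact binomial test (two-sided) was adjusted by the Benjamini-Hochberg method over all such loops, with a threshold of 0.05. Intervals of 95% (normal on the log scale) cover counting error only. The test and the coverage call were checked on simulated data, the test for LPS against UT in p30 only. For the loop-number call only the counting of loops per bin was checked, on a made list. Python 3.11.15, scipy 1.17.1 and pandas 2.3.3 were used. Named genes are all members, genes with a start in a partner bin of a member loop of all 4 lists, pathway genes that were called, and 3 genes most like the member of widest range. Outside this rule, Clptm1, Gm39612, Gm16175, Gm56554 and Sirt2 describe members' bins, Traf6, Ikbkb and 5 markers of other cell types were named for having no loop, and Gm19345 was chosen after its value was seen. Members, gene lists and comparisons were chosen with earlier results of these data known. The alternatives were other q-values, distances, windows, thresholds, scalings and reference shares. Values of some marker genes of other cell types are not reported here.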

Additional observations from a re-analysis of the deposited data

Results flagged for a closer look

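Some measures of the members went in opposite directions with LPS in p30 and in p42, or differed in opposite directions between the isoforms with and without LPS. With 1 pooled list per group these differences were not tested.

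The start-site bin of Nfkbia had a centred log2 coverage change with LPS of 0.53 (p30) and -0.01 (p42), which differ by -0.54, although the p42 value was within counting error of 0. Bcl3 coverage was higher in p42 than in p30 without LPS (0.18) and lower with it (-0.47), a difference of -0.65. These differences are not centred over genes a further time, unlike those of the report.

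Contacts summed over each member's loops in all 4 lists, per modelled contact, had log2 changes with LPS of opposite sign for 4 members. The 95% counting interval left out no change in both lines for Rela alone; relative to the caller's expected contacts the interval of Rela in p30 included no change too. Per modelled contact the intervals included no change in both lines for Rel and Nfkbie, and in p42 for Nfkbia. On this scale, calls over all loops were mostly higher with LPS in p30 (3.89% against 0.039% lower) and mostly lower in p42 (3.58% against 0.087% higher). The log2 changes in p30 and p42 were 0.78 and -0.32 for Rel, which has 1 such loop, a difference of -1.10. They were 0.54 and -0.33 for Rela, a difference of -0.86, and 0.87 and -0.26 for Nfkbia, a difference of -1.14. For Nfkbie they were 0.21 and -0.15, a difference of -0.36. The isoform difference of the same sums turned from 0.13 without LPS to -0.87 with LPS for Nfkb2 (-1.01) and from 0.38 to -0.40 for Nfkbiz (-0.78). It turned for Rel, Rela and Nfkbia as well, by the amounts already given. The counting interval of this difference left out no change both with and without LPS for Rela alone, but relative to expected contacts that of Rela with LPS included it. Per modelled contact the intervals included no change without LPS for Nfkb2 and Nfkbiz, with LPS for Nfkbia, and in both for Rel.

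In lists of equal size, Nfkbie had 2 fewer loops in p42 than in p30 without LPS and 1 more with it, a difference of 3. Bcl3 had 2 more without LPS and 1 fewer with it, a difference of -3.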

How the results depend on the processing

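The main limit is that replicates were pooled before deposit. No paired analysis was possible because each group has 1 list, and no replicate could be left out. Relative to modelled contacts the members' median coverage change was 0.86 for LPS in p30, -0.15 for LPS in p42, 0.21 for p42 against p30 in UT and -0.80 with LPS; 8, 0 and 2 members were then called higher in the first 3 comparisons and 6 lower in the last, against 8.15%, 0.0674%, 10.4% and 29.4% of all start-site bins. On that scale some values below the call changed sign: Rel, Rela, Nfkbib, Nfkbie and Nfkbiz for LPS in p42 (from -0.28 to -0.14), Rel and Rela for the isoforms in UT (0.24 and 0.17), and Nfkbia and Nfkbiz in LPS (-0.22 and -0.38). Relative to the mean coverage of peak bins the medians in p42 LPS, UT and LPS isoform comparisons were 0.17, 0.010 and -0.46, with 0 members called higher in p42 (background 0.701%) and 2 lower with LPS (3.59%). Within deciles of mean coverage, an alternative chosen after seeing the data, the medians were 0.56 for LPS in p30 and -0.20 for the isoforms in LPS, with 0 members called lower (1.14%), and the difference of Bcl3 between its LPS changes was -0.49, below the call. At the lower fold threshold tried, 8 members were higher with LPS in p30 and 4 in p42, 2 were higher and 1 lower in p42 in UT, and 5 were lower with LPS, against 8.87%, 7.16%, 10.7%, 12.6% and 10.2% of all bins. At 2-fold these counts were 2, 0, 0, 0 and 0, against 0.0694%, 0.0809%, 0.324%, 0.117% and 0%. No called member reversed its direction: the coverage changes in p30 ranged over scalings from 1.12 to 1.52 for Bcl3, from 1.06 to 1.46 for Relb and from 0.74 to 1.14 for Nfkb2.

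Of the loops per list (p30 UT, p30 LPS, p42 UT, p42 LPS), 32, 52, 44 and 33 remained when adjacent partners were merged, and 104, 169, 198 and 132 were found with 1 more bin on each side of the start. At q under 0.001, 31, 65, 73 and 48 remained, and with equal sizes 51 remained in p42 UT. At 2-fold, 0 members had fewer loops with LPS in p30, 0 had more with LPS in p42, 0 had more or fewer in p42 in UT and 0 had fewer in p42 with LPS, against 3.91%, 2.5%, 5.68%, 4.08% and 5.94% of all genes. In the deposited lists these counts were 0, 0, 6 more and 0 fewer, and 4, against 3.31%, 0.0904%, 41.5%, 0.543% and 16.9%; and 4 had fewer with LPS in p42, against 45.9%.

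Against expected contacts, 0 member loops were called in each comparison. Of all loops, 0.135%, 0%, 1.40% and 0.0032% were then called higher for LPS in p30, LPS in p42, and the isoforms in UT and in LPS. Called lower were 0.0032%, 0.27%, 0.0032% and 0.068%, so 0 calls is near the background. Among loops in both lists compared, 0 were higher with LPS in p42 (all loops 0.038%) and 1 was lower in p42 with LPS (1.37%). From 20 kb, 3 were higher with LPS in p30, 0 with LPS in p42, 1 in p42 in UT, and 1 was lower in p42 with LPS, of 19 each, against 1.12%, 0.023%, 5.85% and 0.56% of all loops. With 1 bin of slack the share of loops found in the other list was 57.3%, 90.5%, 53.8% and 96.8% (p30 LPS in UT, p42 LPS in UT, p42 UT in p30 UT and p42 LPS in p30 LPS), against 71.3%, 91.5%, 60.4% and 80.5% over all start-site bins, and in lists of equal size it was 63.5% for LPS in p42 and 54.9% for the isoforms in UT, against 65.9% and 59.6%.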
